A study of Mus musculus with 7 samples.

Results

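The transcripts described here are 41 type I interferon-stimulated genes of the mouse, listed by symbol as antiviral effectors, sensors and regulators. The list was chosen with earlier results of these data known. Each of the 41 symbols matched 1 of the 47729 gene identifiers in the deposited table of estimated counts, and all 41 passed the filter on low counts that left 19188 genes for testing. The table holds bulk RNA-seq of aorta tissue from wild-type mice (WT, 4 libraries) and from Mmp19-/- mice, labelled as knockouts of a secreted matrix metalloproteinase (KO, 3 libraries). Genotype is the only factor in the labels, and the sources at hand name neither the kind of deletion nor strain, sex, age or any treatment. The labels do not say that each library came from its own mouse, so the p-values below measure the spread between these 7 libraries, which may be technical. Total estimated counts were 68151472 to 76926790 per library. *Mmp19* itself was at 24.8, 24.8, 20.7 and 34.7 CPM (counts per 1e6 counts of the TMM-scaled library) in WT and 25.5, 12.0 and 15.9 CPM in KO (edgeR adjusted p = 0.368). KO replicate 1 lay inside the WT range, and counts per gene do not show whether the deleted part was read, so this is no check of the labels. WT and KO below stand for the libraries so labelled.

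Type I interferons (interferon alpha and beta) bind the receptor pair IFNAR1 and IFNAR2, whose kinases JAK1 and TYK2 act on STAT proteins. STAT2 and IRF9 are parts of the factor ISGF3, which binds the interferon-stimulated response element (ISRE) in the promoters of its target genes. The products of these genes sense viral RNA or DNA, degrade RNA, block translation or restrict virus entry and release, and some of them feed back on the pathway. In the vessel wall, smooth muscle cells, endothelial cells, fibroblasts and macrophages can all respond to interferon. Reads of a tissue do not show which cells made a transcript, and fewer cells of a type cannot be told apart from less RNA per cell.

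The letters of the ISRE were looked for in the promoters, after the counts had been fitted. This element is what the members are known to share, and the list of symbols did not use sequence. RefSeq promoter windows (GRCm38.p6, 250 bases before to 50 bases after each transcription start) were at hand for 30 of the 41 members. The core of the element, GAAA followed by any 2 bases and a second GAAA, was read on both strands, so that a pair of TTTC spaced in the same way also counts. It stood in the window of 14 of these 30 members (46.7%). It stood in 3.44% of all 32851 windows of the same length and in 3.99% of the 27025 genes that have them. The shorter palindromic core of TTC, any 3 bases and GAA, to which STAT dimers bind and which can overlap an ISRE, stood in 8 of the 30 members (26.7%) and in 9.55% of all genes. The stretches of 7 members follow as printed on the strand of the gene, 5′ to 3′, with the ISRE core letters in capitals. These 7 are shown because the results below turn on these genes or their families.

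*Isg15*, chr4:156200860-156200911, minus strand: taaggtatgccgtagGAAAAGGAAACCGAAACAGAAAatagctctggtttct
*Oas1a*, chr5:120907526-120907560, minus strand: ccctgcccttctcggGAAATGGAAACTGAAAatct
*Oas3*, chr5:120777710-120777749, minus strand: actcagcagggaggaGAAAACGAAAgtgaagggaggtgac
*Bst2*, chr8:71537572-71537617, minus strand: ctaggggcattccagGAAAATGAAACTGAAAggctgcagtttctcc
*Ifit1*, chr19:34640770-34640828, plus strand: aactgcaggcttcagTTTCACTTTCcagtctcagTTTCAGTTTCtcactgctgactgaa
*Ifit3*, chr19:34583358-34583431, plus strand: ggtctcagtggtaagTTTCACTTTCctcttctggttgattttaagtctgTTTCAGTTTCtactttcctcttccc
*Ifit3b*, chr19:34607754-34607827, plus strand: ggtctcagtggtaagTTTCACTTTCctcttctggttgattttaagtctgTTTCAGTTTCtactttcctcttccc

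In *Isg15* 3 overlapping cores begin 78 to 66 bases before the start, and in *Oas1a* 2 overlapping cores begin 20 and 14 bases before it. The stretches of *Ifit3* and *Ifit3b* are the same letter for letter over 74 bases, with cores that begin 156 and 122 bases before the start of *Ifit3* and 188 and 154 bases before that of *Ifit3b*. The 14 members with the core had a median log2 fold change (KO minus WT) of 1.04, from 0.51 to 4.03. For the 16 members whose window lacks it the median was 0.60, from 0.16 to 2.07, and for the 11 without a window it was 1.28. The groups did not overlap in 12 of the 14, 8 of the 16 and 6 of the 11 members, every KO library being the higher, as in 8.17% of all genes tested. A core in these windows is a match of letters, and its absence says only that the letters are not there.

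All 41 members had a positive log2 fold change in KO, where 46.9% of the genes tested did. The median over the members was 0.90, a fold of 1.86, and single values ran from 0.16 for *Ifit2* to 4.03 for *Oas3*. The median over all genes tested was -0.03, with the middle 50% between -0.32 and 0.26. In 26 members the lowest KO library exceeded the highest WT library, against 8.17% of all genes, and 19 members had a difference of 2-fold or more, against 8.55%. No member passed the test over all genes with edgeR's quasi-likelihood fit (smallest adjusted p = 0.165), which called 3 genes in all (0.0156%). At an unadjusted p under 0.05 there were 32 members, all higher, beside 9.92% of all genes that were higher at that level. DESeq2 called 26 members, all higher, and 6.15% of the genes it tested were called higher. limma-voom with weights for library quality called 2 members, *Rsad2* and *Bst2*, beside 0.0938% of all genes called higher. The count of edgeR turned on KO replicate 2, the lowest KO library for 30 of the 41 members. Leaving it out therefore raises most of their differences. Without that library edgeR called 22 members, all higher, and 3.34% of all genes higher. Of these 22, 21 were among the 26 of DESeq2, but both sets come from the same data and are no separate support. The list was chosen with earlier results of these libraries known, so its common direction is a description.

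**Figure D1:**
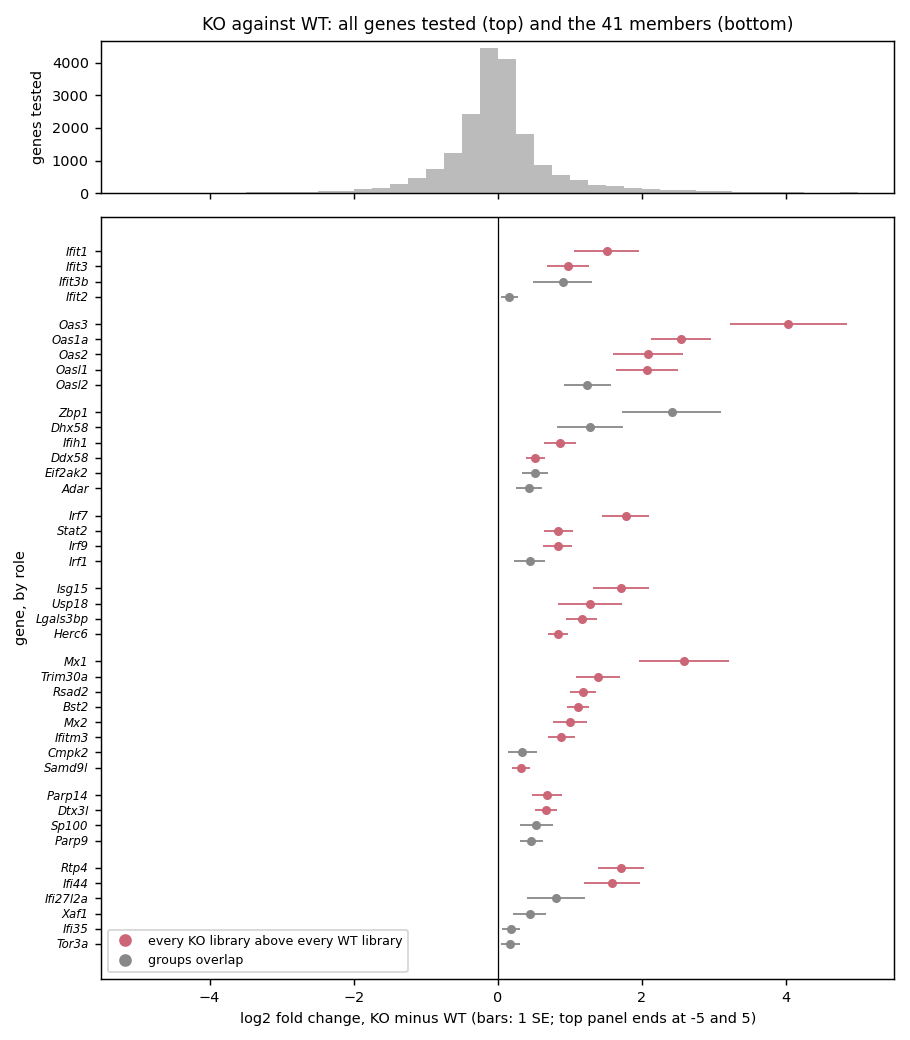
Log2 fold changes of KO minus WT. The top panel counts the 19188 genes tested by log2 fold change; the bottom panel shows each of the 41 members with 1 SE, grouped by role, in red where every KO library lies above every WT library (26 genes) and in grey where the groups overlap (15 genes). All 41 points lie to the right of 0.

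KO replicate 1, the highest library for 18 members, stood apart from the rest. Mitochondrial genes took 5.95% of its counts against 9.99% to 15.3% in the other 6 libraries, and limma-voom gave it the lowest quality weight (0.238, others 0.717 to 3.17). Its mean chi-square per gene was 169 to 255 against each other library, where the other pairs had 23.2 to 120. Marker genes of other cells also differed between the libraries. All 12 macrophage and monocyte markers had every KO library above every WT library, as did 8.17% of all genes tested. Their summed level was 4392, 744 and 1373 CPM in KO replicates 1 to 3 against 330 to 581 CPM in WT. KO replicate 1 was the highest KO library for all 12 of these markers, for 18 of the 41 members and for 37.2% of all genes tested. The median over these markers of log2 CPM minus the WT mean was 3.10, 0.88 and 1.83 in KO replicates 1 to 3. The neutrophil markers summed to 328, 10.1 and 56.2 CPM in KO and to 2.95 to 9.97 CPM in WT, with *Ly6g* and *Retnlg* at 0 in some libraries. All 7 contractile smooth muscle markers had a negative log2 fold change. In 6 of them every KO library lay below every WT library, as in 1643 of the 19188 genes tested. These 7 markers summed to 3413, 13362 and 6994 CPM in KO and 17722 to 19648 CPM in WT. The part of these cells, or of what sets KO replicate 1 apart, in the members' difference was not tested. Markers of plasmacytoid dendritic cells, the strongest makers of interferon alpha, summed to 4.22 to 9.82 CPM in KO and 2.70 to 22.9 CPM in WT, with *Klk1* and *Pacsin1* at 0 in some libraries.

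**Figure D2:**
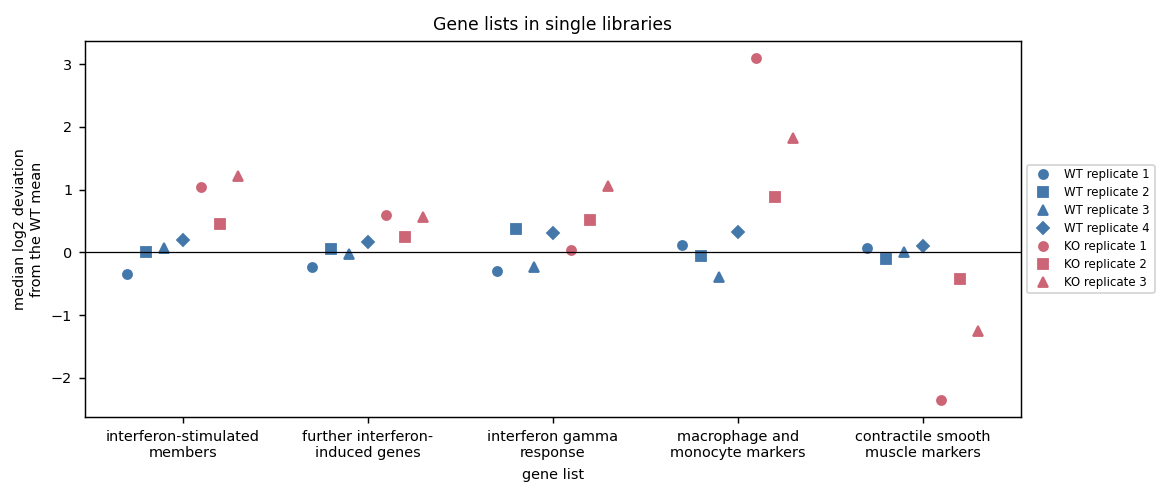
Median log2 deviation from the WT mean in each library for the 41 members and 4 other gene lists, WT in blue and KO in red. KO replicate 3 is highest for the members (1.22 against 1.04 in KO replicate 1), and KO replicate 1 is highest for the macrophage markers (3.10 against 1.83) and lowest for the contractile markers.

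Heart muscle markers summed to 691 and 1187 CPM in KO replicates 1 and 2, 8.58 CPM in KO replicate 3 and 19.9 to 93.7 CPM in WT, and T and NK cell markers to 98.4 CPM in WT replicate 2 against 9.44 to 33.1 CPM in the other libraries, and their part in the values of the members was not tested either. Without KO replicate 1 the median of the members was 0.98. With KO replicate 3 alone against the 4 WT libraries, a setting added after these values were seen, all 41 members stayed positive, with a median log2 fold change of 1.13 and 0 calls (edgeR, smallest adjusted p = 0.0535), where 0.344% of all genes were called higher. KO replicate 3 is then the lone KO library and is assumed to vary like the WT libraries. It was also the highest library on the members, with a median log2 deviation from the WT mean of 1.22. It lay inside the WT range for 1 member only. Choosing KO replicate 3 therefore nearly fixed the positive direction and the larger median beforehand. This setting is thus no test of the part of KO replicate 1 or of the heart muscle markers.

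Levels spanned a wide range. Per kilobase of exon, *Ifi27l2a*, a small mitochondrial membrane protein, stood highest in WT at 141 CPM per kilobase. *Ifitm3*, which blocks virus entry at endosomes, followed at 96.1 and *Bst2*, the tetherin that holds budding virus at the cell surface, at 25.5 CPM per kilobase. The lowest WT level was that of *Oas3*, at 0.0703 CPM per kilobase. In KO the same first 3 genes stood at 248, 176 and 55.1 CPM per kilobase. Of the 50-base words in the transcripts of *Herc6*, *Rtp4* and *Ifitm3*, 12.5%, 11.6% and 10% also occur in other genes, and 16.8% of the exon bases of *Adar* lie over those of *Chrnb2*.

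The 2'-5'-oligoadenylate synthetase (OAS) family, whose active synthetases make the second messenger that switches on RNase L, had the largest median difference of the 8 roles. Over the 5 members it was 2.08 on the log2 scale (1.75 without KO replicate 1), and in 4 of them the groups did not overlap. *Oas3* (chromosome 5, 120753098 to 120777661, GRCm38) read 0.282, 1.14, 0.186 and 0.380 CPM in WT replicates 1 to 4 and 12.4, 2.16 and 9.98 CPM in KO replicates 1 to 3. KO replicate 2 lay nearer to the WT libraries than to the other KO libraries, and no KO library fell into the WT range. Mean levels, given here and below with the SD over 4 WT and 3 KO libraries, were 0.497 ± 0.436 CPM (WT) and 8.18 ± 5.36 CPM (KO), or 4.03 on the log2 scale (SE 0.81, edgeR adjusted p = 0.165; DESeq2 adjusted p = 1.19e-05). *Oas1a* (chromosome 5, 120896256 to 120907521), a further synthetase of the same cluster, read 1.86, 1.90, 2.07 and 3.18 CPM in WT and 20.2, 6.07 and 12.97 CPM in KO. Its log2 fold change was 2.54 (SE 0.42, edgeR adjusted p = 0.165; DESeq2 adjusted p = 1.55e-06), and the KO order was again replicates 1, 3 and 2. Of the 50-base words in its transcripts 57.6% also occur in other genes, chiefly *Oas1g* and *Oas1b*, so its counts may be split with these copies. *Oas2*, the middle-sized synthetase, had means of 7.25 ± 2.30 CPM (WT) and 30.8 ± 21.9 CPM (KO), and *Oasl1*, a synthetase-like protein that holds back IRF7 translation, 1.49 ± 0.220 and 6.30 ± 3.38 CPM. *Oasl2*, a synthetase-like protein with ubiquitin-like domains, read 13.96, 14.7, 23.6 and 17.3 CPM in WT and 52.0, 21.5 and 50.002 CPM in KO, so that KO replicate 2 fell among the WT values.

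The IFIT proteins, which bind viral RNA and hold it from translation, lie side by side on chromosome 19 and differed among themselves. *Ifit3* (34583531 to 34588731) read 7.55, 12.7, 17.9 and 17.3 CPM in WT and 24.2, 26.6 and 31.0 CPM in KO. Every KO library lay above the WT range, WT replicate 1 being the lowest of the 7 (log2 fold change 0.97, SE 0.29, edgeR adjusted p = 0.192). Its near copy *Ifit3b* had means of 4.97 ± 2.52 CPM (WT) and 9.27 ± 2.14 CPM (KO), with KO replicate 1 inside the WT range. Some 51.2% of the 50-base words of *Ifit3* occur also in other genes, chiefly *Ifit3b*, and the split of reads between these copies is uncertain. *Ifit1* read 2.41, 5.20, 8.61 and 6.01 CPM in WT and 16.8, 8.80 and 22.0 CPM in KO, where KO replicate 2 cleared the highest WT library by a small margin. *Ifit2* (34550694 to 34576419) had the smallest difference of all members. It read 21.3, 21.9, 25.7 and 26.2 CPM in WT and 25.3, 26.4 and 28.0 CPM in KO, or 0.16 on the log2 scale (SE 0.12, edgeR adjusted p = 0.548).

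Among the transcription factors of the pathway, *Irf7*, the amplifier of interferon alpha genes that is itself induced by interferon, had the largest log2 fold change. It (chromosome 7, 141262706 to 141266481) read 7.22, 13.7, 9.61 and 10.8 CPM in WT and 39.1, 19.8 and 47.1 CPM in KO. All KO libraries stood above the highest WT library, KO replicate 3 being the highest (log2 fold change 1.77, SE 0.32, edgeR adjusted p = 0.165; DESeq2 adjusted p = 6.35e-05). The ISGF3 partners *Stat2* and *Irf9* averaged 57.2 ± 12.6 and 43.0 ± 10.3 CPM in KO against 32.0 ± 5.63 and 24.1 ± 3.77 CPM in WT, and neither gene's groups overlapped. *Irf1* (chromosome 11, 53770014 to 53778374), which answers interferon gamma more than type I interferon, read 20.4, 29.1, 37.2 and 33.4 CPM in WT and 43.1, 33.0 and 45.8 CPM in KO. KO replicate 2 fell among the WT values, and the log2 fold change was 0.44 (SE 0.22, edgeR adjusted p = 0.354).

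**Figure D3:**
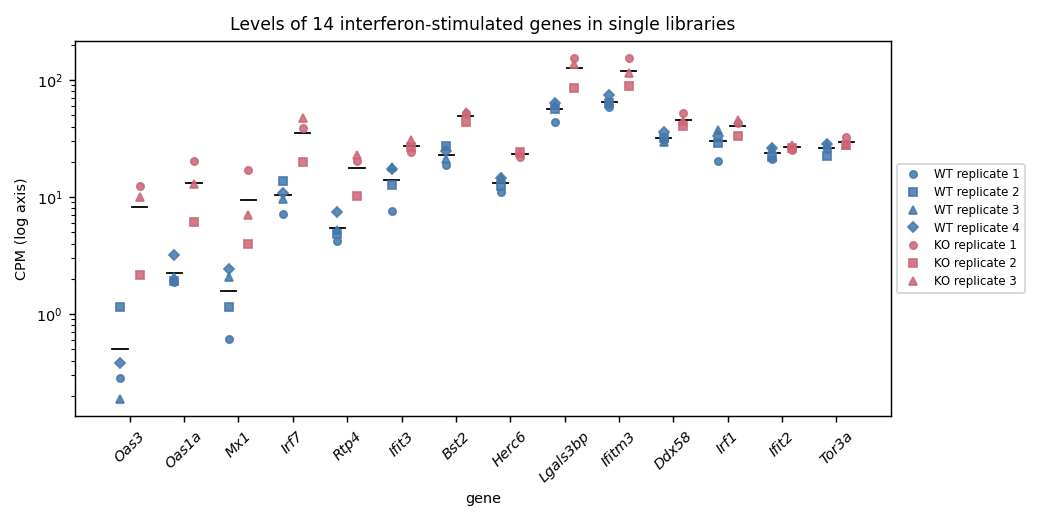
CPM on a log axis of 14 members in the single libraries, WT in blue and KO in red, with the symbol giving the replicate number and the black bar the group mean. *Oas3* shows the widest gap (0.497 against 8.18 CPM on average), and the KO points of *Ifit2* and *Tor3a* sit among or just above the WT points.

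The sensors of foreign nucleic acid had a median of 0.69 on the log2 scale over 6 members, and in 2 of them, *Ddx58* and *Ifih1*, the groups did not overlap. *Ddx58*, which encodes the RNA sensor RIG-I (chromosome 4, 40203773 to 40239828), read 30.7, 31.8, 29.3 and 36.3 CPM in WT and 52.0, 40.8 and 44.7 CPM in KO. The difference was small and even, at 0.52 on the log2 scale (SE 0.13, edgeR adjusted p = 0.172; DESeq2 adjusted p = 0.0112). *Ifih1*, the long-RNA sensor MDA5, had means of 13.3 ± 1.199 CPM (WT) and 24.2 ± 7.10 CPM (KO). *Zbp1*, the sensor of Z-form nucleic acid that can start necroptosis, read 0.784, 2.58, 1.51 and 3.18 CPM in WT and 13.9, 2.41 and 15.9 CPM in KO. KO replicates 1 and 3 were far above WT, and KO replicate 2 lay between the WT libraries. The same split held for *Dhx58*, the regulatory helicase LGP2, with 11.5, 4.20 and 10.1 CPM in KO and 1.57 to 4.55 CPM in WT. *Eif2ak2*, the kinase PKR that stops translation on double-stranded RNA (chromosome 17, 78852564 to 78882573), read 22.1, 24.1, 27.4 and 25.9 CPM in WT and 42.3, 25.8 and 38.1 CPM in KO. *Adar*, which edits double-stranded RNA, had means of 37.4 ± 4.90 CPM (WT) and 50.4 ± 11.7 CPM (KO), and KO replicate 2 again lay inside the WT range for both genes.

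The ubiquitin-like modifier ISG15 and the proteins around it separated the groups in all 4 members, KO being higher, against 8.17% of all genes tested. *Isg15* read 1.83, 2.62, 4.13 and 4.05 CPM in WT and 8.79, 6.80 and 15.4 CPM in KO, with KO replicate 3 the highest (log2 fold change 1.71, SE 0.39, edgeR adjusted p = 0.170; DESeq2 adjusted p = 0.00133). *Usp18*, the protease that removes ISG15 and damps the receptor, had means of 3.65 ± 1.51 CPM (WT) and 8.87 ± 3.26 CPM (KO). *Herc6*, an E3 ligase for ISG15 (chromosome 6, 57581000 to 57664632), had close values within each group, with 11.1, 12.4, 14.96 and 14.4 CPM in WT and 22.1, 24.4 and 24.0 CPM in KO. Its log2 fold change was 0.83 (SE 0.14, edgeR adjusted p = 0.165; DESeq2 adjusted p = 1.37e-05), and here KO replicate 2 was the highest library. *Lgals3bp*, a secreted galectin-binding glycoprotein counted here with them (chromosome 11, 118392751 to 118402092), read 43.5, 56.6, 61.4 and 63.4 CPM in WT and 155, 85.2 and 138 CPM in KO.

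Of the 8 other antiviral effectors 7 separated the groups, KO being higher, against 8.17% of all genes tested. *Bst2* (chromosome 8, 71534255 to 71537456) had the smallest p of all members and read 18.8, 27.3, 21.3 and 24.6 CPM in WT and 52.5, 43.6 and 53.1 CPM in KO. The 3 KO libraries lay close together, well above WT (log2 fold change 1.11, SE 0.15, edgeR adjusted p = 0.165; DESeq2 adjusted p = 4.37e-07). *Mx1*, a dynamin-like GTPase against influenza virus (chromosome 16, 97447035 to 97462907), read 0.611, 1.14, 2.07 and 2.44 CPM in WT and 17.0, 4.00 and 7.07 CPM in KO, or 2.58 on the log2 scale (SE 0.62, edgeR adjusted p = 0.172). Without KO replicate 1 that value was 1.81. *Mx2*, which the annotation lists as a polymorphic pseudogene, had means of 2.19 ± 0.343 CPM (WT) and 4.38 ± 0.324 CPM (KO). *Rsad2*, the radical SAM enzyme viperin, and *Cmpk2*, a mitochondrial nucleotide kinase that supplies its substrate, are neighbours on chromosome 12. *Rsad2* had means of 12.8 ± 1.75 CPM (WT) and 29.0 ± 6.48 CPM (KO), with no overlap, while *Cmpk2* had 12.0 ± 2.52 CPM (WT) and 15.2 ± 1.68 CPM (KO), with KO replicate 1 inside the WT range. *Ifitm3* (chromosome 7, 141009586 to 141010770) read 59.4, 64.0, 61.9 and 75.2 CPM in WT and 155, 88.4 and 115 CPM in KO. *Trim30a*, a tripartite-motif protein that restrains Toll-like receptor signalling, had means of 17.8 ± 3.01 CPM (WT) and 46.6 ± 19.9 CPM (KO), and *Samd9l*, a translation-blocking antiviral factor, 57.9 ± 8.11 and 72.4 ± 1.91 CPM.

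The PARP and DTX3L genes, whose products modify proteins with ADP-ribose and ubiquitin, came, with the nuclear-body protein *Sp100*, to a median of 0.60 on the log2 scale over 4 members. *Dtx3l* (chromosome 16, 35926511 to 35939151) read 21.4, 24.9, 25.3 and 27.9 CPM in WT and 47.0, 34.9 and 36.5 CPM in KO (log2 fold change 0.67, SE 0.15, edgeR adjusted p = 0.166; DESeq2 adjusted p = 0.00523). *Parp9* (35938470 to 35972605), its partner, lies head to head with it on the other strand and read 23.4, 27.8, 22.2 and 31.4 CPM in WT and 37.4, 30.5 and 40.3 CPM in KO. KO replicate 2 was inside the WT range for *Parp9* and above it for *Dtx3l*; their exons share 458 bases, and without the strand setting of the counting the reads of this stretch cannot be told apart. *Parp14* had means of 40.8 ± 7.26 CPM (WT) and 65.3 ± 16.2 CPM (KO), and *Sp100* 29.1 ± 5.83 and 41.9 ± 11.8 CPM.

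The 6 remaining genes ranged from a log2 fold change of 0.17 to 1.71. *Rtp4*, a chaperone of receptor transport (chromosome 16, 23520291 to 23614222), read 4.20, 4.87, 5.21 and 7.44 CPM in WT and 20.2, 10.1 and 23.0 CPM in KO (log2 fold change 1.71, SE 0.32, edgeR adjusted p = 0.165; DESeq2 adjusted p = 8.61e-05). *Ifi44*, a GTPase-like protein, had means of 2.35 ± 0.824 CPM (WT) and 7.04 ± 2.71 CPM (KO), and its groups did not overlap either. *Ifi27l2a* (chromosome 12, 103442167 to 103443680) read 27.3, 76.5, 66.9 and 91.0 CPM in WT and 105, 80.0 and 159 CPM in KO. Its WT libraries differed among themselves by more than 3-fold, WT replicate 1 standing low, and KO replicate 2 lay in their range. *Tor3a*, an endoplasmic reticulum ATPase (chromosome 1, 156653617 to 156674356), read 26.0, 22.6, 28.1 and 28.5 CPM in WT and 32.9, 27.8 and 28.0 CPM in KO (log2 fold change 0.17, SE 0.13, edgeR adjusted p = 0.542). *Ifi35* and *Xaf1*, a regulator of innate signalling and a pro-apoptotic factor, averaged 22.8 ± 2.56 and 14.1 ± 1.68 CPM in KO against 20.1 ± 1.59 and 10.4 ± 2.91 CPM in WT, with overlap in each.

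The libraries were then ranked by the members. The median over the 41 genes of log2 CPM minus the WT mean was 1.22, 1.04 and 0.45 in KO replicates 3, 1 and 2, and 0.19, 0.07, 0.01 and -0.34 in WT replicates 4, 3, 2 and 1. A KO library was the highest of the 7 for every member: KO replicate 3 for 21, KO replicate 1 for 18 and KO replicate 2 for *Herc6* and *Samd9l*. Among the KO libraries only, the counts are the same 21 (KO replicate 3) and 18 (KO replicate 1). On that measure KO replicate 3 was the highest KO library for 28.5% of all genes tested and KO replicate 1 for 37.2%. KO replicate 1 led all 5 OAS family genes and *Mx1*, while KO replicate 3 led all 4 IFIT genes, *Isg15*, *Usp18*, *Rsad2*, *Irf7* and *Irf9*. In KO replicate 2, 11 members lay inside the WT range, in KO replicate 1 the number was 5 and in KO replicate 3 it was 1 (*Tor3a*). No share over all genes was taken for a KO library being the highest of the 7 or lying inside the WT range. On the WT side, replicate 1 was the lowest of the 7 libraries for 31 members, beside 15.2% of all genes.

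**Figure D4:**
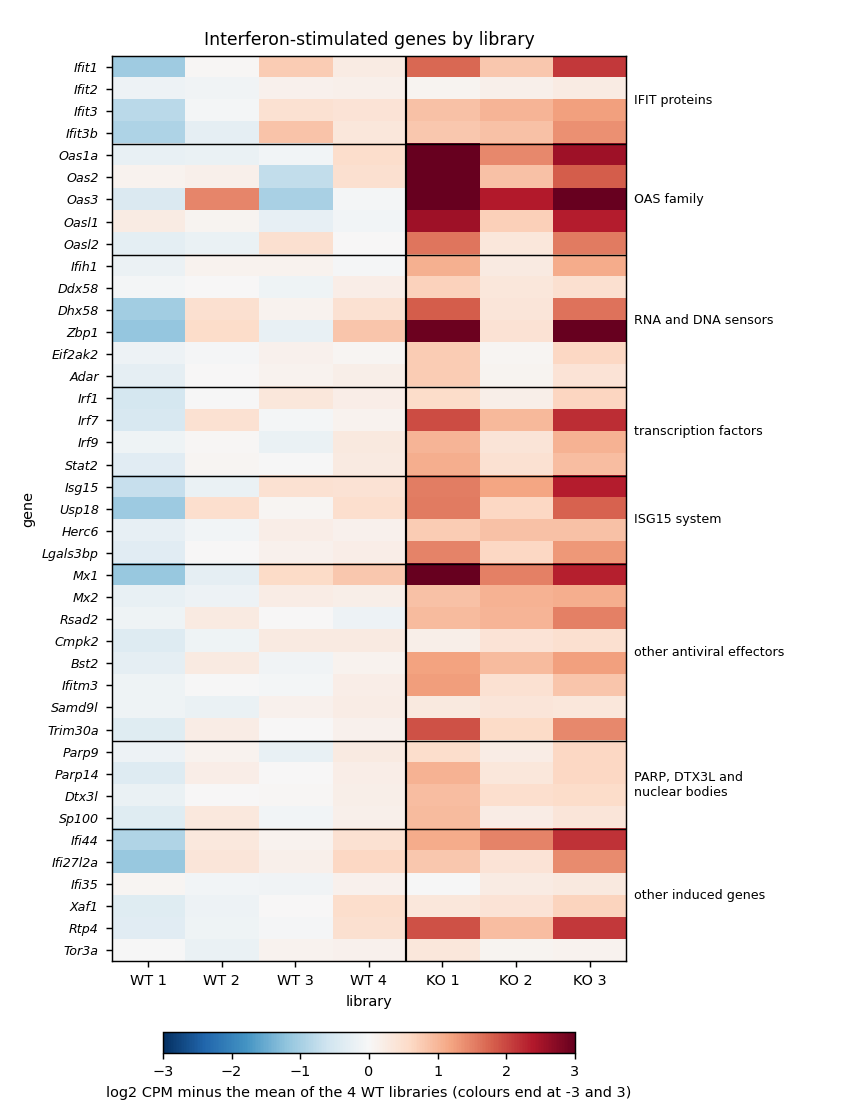
Each row is a member and each column a library; the colour is log2 CPM minus the mean of the 4 WT libraries, red above and blue below it. The KO columns are red throughout the OAS rows. Over all 41 members KO replicate 2 is paler (median deviation 0.45) than KO replicates 1 and 3 (1.04 and 1.22), and WT replicate 1 is the bluest column (-0.34).

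The genes of the interferons themselves were at or near 0. Of 21 interferon genes 15 had no count in any library. The deposited values pile up at multiples of 4, so counts this small may stand for very few reads. No limit by counting error is given for them. Interferon beta, *Ifnb1*, had a count of 4 in KO replicate 3 and 0 elsewhere, and interferon gamma, *Ifng*, 6 in the same library and 0 elsewhere. *Ifnab* and *Ifne* had 6 and 5 counts in KO replicate 1 and 0 elsewhere, and *Ifnk* had 3 in KO replicate 1 and 8, the highest count of any interferon gene, in KO replicate 3. *Ifnz* had 0, 4, 1 and 4 counts in WT and 6, 5 and 1 in KO. Over the 21 genes the counts came to 9 in the 4 WT libraries and 44 in the 3 KO libraries. All 21 failed the filter on low counts and were not tested.

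Receptors and signalling proteins were slightly higher in KO by their median. All 10 genes of this list were on the positive side, with a median log2 fold change of 0.39 (0.17 without KO replicate 1), and edgeR called 0 of them, with 4 higher at an unadjusted p under 0.05. Over all genes tested 46.9% were positive and 9.92% were higher at that p. *Il10rb*, a receptor chain for interferon lambda, had means of 26.1 ± 0.865 CPM (WT) and 45.1 ± 22.3 CPM (KO), *Ifngr1* 108 ± 16.5 and 141 ± 14.9 CPM, and *Jak1* 134 ± 3.70 and 177 ± 44.5 CPM.

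Of 15 genes that lead to interferon production 13 had a positive value, beside 46.9% of all genes tested. The median over the 15 was 0.55 (0.29 without KO replicate 1). DESeq2 called 7 of them higher, beside 6.15% of all the genes it tested. The 4 with the smallest p were *Tlr9*, the endosomal DNA receptor (8.18 ± 7.21 CPM in KO against 1.18 ± 0.295 CPM in WT), the myeloid factors *Irf8* (27.2 ± 22.8 against 5.57 ± 0.756 CPM) and *Irf5* (25.5 ± 20.2 against 6.41 ± 0.898 CPM), and the adaptor *Myd88* (54.4 ± 23.6 against 24.4 ± 2.81 CPM). KO replicate 1 was the highest KO library for 13 of these 15 genes, for all 12 macrophage markers and for 37.2% of all genes tested. *Irf3*, the constitutive factor that first switches on *Ifnb1*, had a log2 fold change of 0.02 (SE 0.13).

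The negative regulators showed no common level. Of 8 genes 6 were positive, beside 46.9% of all genes tested, and the median over the 8 was 0.24 (0.04 without KO replicate 1). DESeq2 called *Socs3* and *Ptpn6* higher, beside 6.15% of all the genes it tested. *Socs3*, the feedback inhibitor of gp130 cytokines, had means of 10.1 ± 2.47 CPM (WT) and 68.1 ± 46.3 CPM (KO), and *Ptpn6*, the leukocyte phosphatase SHP-1, 5.91 ± 2.34 and 43.4 ± 47.6 CPM. *Samhd1*, a nucleotide hydrolase, had means of 72.0 ± 14.5 CPM (WT) and 131 ± 65.9 CPM (KO), and *Pias1*, a SUMO ligase, 51.9 ± 4.56 and 45.5 ± 5.45 CPM. *Socs1*, the feedback inhibitor of the interferon receptors, had a log2 fold change of 0.14 (SE 0.27).

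A second list of 33 interferon-induced genes that are not members had 32 positive values and a median log2 fold change of 0.46. DESeq2 called 12 of them higher and 0 lower, edgeR 0, and in 12 every KO library was above every WT library. Over all genes the shares were 46.9% for positive values, 6.15% for the calls of DESeq2 and 8.17% for such groups. Those with the smallest p were *Ms4a4c*, a myeloid membrane protein (8.26 ± 8.02 CPM in KO against 0.153 ± 0.0850 CPM in WT), the synthetase *Oas1g* (4.67 ± 2.35 against 1.03 ± 0.168 CPM), and the Schlafen proteins *Slfn8* (20.0 ± 11.4 against 4.21 ± 0.839 CPM) and *Slfn9* (16.4 ± 11.8 against 3.46 ± 0.647 CPM). The exception in sign was *Oas1c*, with a log2 fold change of -0.26 (SE 0.27). The 8 genes that answer interferon gamma had 5 positive and 3 negative values, with DESeq2 calling 3 higher: *H2-Aa* (135 ± 52.1 against 36.2 ± 9.83 CPM) and *H2-Ab1* (124 ± 66.8 against 32.6 ± 7.31 CPM), the chains of an MHC class II molecule, and their activator *Ciita* (13.5 ± 11.1 against 2.84 ± 1.16 CPM). *Gbp2*, a guanylate-binding protein, had means of 29.0 ± 4.77 CPM (WT) and 41.1 ± 14.4 CPM (KO; edgeR adjusted p = 0.350). The 3 negative log2 fold changes were those of *Ido1* (-0.83, SE 0.65), *Cd274* (-0.28, SE 0.52) and *Nos2* (-0.08, SE 0.21), and the groups overlapped in each.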

How the data were processed

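Aortic RNA (Trizol, SMARTER libraries, per the labels' protocols) was read as 1 gene table. Its values are estimated counts, as deposited by the authors for the 7 libraries, and every column was used. The builds GRCm38 and mm10 come from the submitters' processing notes. Aligner, counter, annotation release and strand setting: not given in the sources used here. All values are whole numbers, so rounding changed nothing, and they pile up at multiples of 4. Symbols were found for 47224 of 47729 identifiers; positions and exon lengths come from GENCODE M21 on GRCm38.

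KO and WT were compared in R 4.3.3 with edgeR 4.0.16 (filterByExpr, TMM, glmQLFit and glmQLFTest without covariates, Benjamini-Hochberg over 19188 genes, threshold 0.05). SEs match the quasi-likelihood F statistic. Deviations use log2 CPM with a prior count of 2. Alternatives were DESeq2 1.42.0 and its size factors, limma-voom (limma 3.58.1) with quality weights, other filters, counts divided by 4, the replicate block and leaving out each library. The procedure was also run on simulated counts, whose outcome is not given here. No simulated library was set apart as KO replicate 1 is, so they do not show how the fit behaves with such a library.

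Members and lists were chosen with earlier results of these data known. Every library value is given for the member of each role with the smallest p or the highest level per kilobase, and for the 2 largest and 2 smallest changes at 2 CPM or more. *Ifit1*, *Zbp1*, *Dhx58*, *Isg15*, *Irf3*, *Socs1*, *Oas1c*, *Ido1*, *Cd274* and *Nos2* fall outside that rule and were named after their values were seen. Of the receptor list, 1 gene is not reported here. No library repeats another: the closest pair had a chi-square of 23.2 per gene.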

Additional observations from a re-analysis of the deposited data

Results flagged for a closer look

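Of 52 sets of 4 WT values checked (41 members, 10 marker sums and the members' median deviation), 2 had a library far from the other WT libraries, where chance gives about 1 in 20. *Oas1a* stood at 3.18 CPM in WT replicate 4 against 1.86 to 2.07 CPM in the other WT libraries. The T and NK cell markers summed to 98.4 CPM in WT replicate 2 against 9.44 to 13.4 CPM in the other WT libraries.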

How the results depend on the processing

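All 41 members kept a positive log2 fold change under every alternative run. Their median was 0.90 to 1.09 across the other normalization, filters, tools, count unit and replicate block, and 0.84 to 1.08 when single libraries were left out. It was 1.13 with KO replicate 3 as the lone KO library, which is assumed to vary like the others. That library was already the highest on the members, so its sign and median there add no separate support. The number of members called was 0 with edgeR on all 7 libraries under each scaling, filter and block, 26 with DESeq2, 2 with limma-voom and, leaving out single libraries, between 0 and 22. Over all genes the 3 calls became 0 without a filter, 7 with 50 counts or more in at least 3 libraries, 7 with counts divided by 4, 1606 with DESeq2, 22 with limma-voom, 0 with the replicate block, between 0 and 1029 without single libraries (0 without any library other than KO replicate 2), and 108 with KO replicate 3 alone. The cause was not tested. In the 19 named members over 15 alternatives 258 values stayed on the same side of the threshold, 27 moved past it, and none changed sign. Same-numbered WT and KO libraries deviated together with correlations over genes of 0.0545, 0.0691 and 0.340. Only the third pair correlated best with its own number. So few pairs cannot exclude pairing. The labels do not say that the numbers pair mice, so the main fit had no block. Prior count and scaling left the order of the 7 libraries as it was. Low levels limit the precision of *Oas3*, with the lowest WT mean of the members.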
